A study of Arabidopsis thaliana with 12 samples.

Results

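Ethylene synthesis and perception were followed in *Arabidopsis thaliana* through 10 genes chosen by gene identifier, though with earlier results of these data known, of which 9 are described. They are 4 ACC synthases (ACS2, ACS6, ACS7 and ACS8), 3 ACC oxidases (ACO1, ACO3 and ACO4) and 2 ethylene receptors (ETR2 and ERS2), and all counts of members are over these 9. Each had a value in the expression table, which holds 20017 genes. The table comes from RNA sequencing of 12 root libraries in 4 groups of 3, namely *crr* -Pi, Col-0 -Pi, *crr* +Pi and Col-0 +Pi. Col-0 is the wild-type accession, and *crr* is a loss-of-function mutant of CRR, a gene for a membrane protein with cytochrome b561 and DOMON domains. According to the study's methods the mutant is a single T-DNA insertion line, and each library was made from the pooled roots of many seedlings. All seedlings had grown for 7 days on agar plates, either with 1 mM phosphate (+Pi) or on medium without added phosphate (-Pi), which per the study's methods was not wholly free of it. The comparisons ask how these genes differ between phosphate supplies in each genotype, and whether the mutant differs from the wild type under either supply.

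Ethylene is a gaseous hormone made from methionine. S-adenosylmethionine is converted to 1-aminocyclopropane-1-carboxylate (ACC) by ACC synthase, commonly the limiting step, and ACC oxidase, an enzyme that needs ferrous iron and ascorbate, turns ACC into ethylene. The receptors sit in the membrane of the endoplasmic reticulum, bind ethylene through a copper ion and repress the pathway while no ethylene is bound. In roots the hormone is known for restraining cell elongation and promoting root hairs, and it is one of the hormones linked to the response of roots to low phosphate.

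Each value is a group mean computed by the authors, in log2 CPM (CPM scales the reads of a gene to a fixed library total). A difference between groups is therefore a difference of 2 group means, given in log2 units. No values of the 3 libraries behind a mean were used, so that no standard deviation and no test stand beside these differences, and "higher" and "lower" describe the group means alone. In whole roots, fewer cells expressing a gene and less RNA per cell cannot be told apart.

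CRR (AT3G25290), the gene affected in the mutant, was at -0.11 log2 CPM in *crr* -Pi, against 5.64 in Col-0 -Pi, and at -0.38 in *crr* +Pi, against 5.99 in Col-0 +Pi. The difference was -5.75 under -Pi and -6.37 under +Pi, in the direction the genotype labels give. All 9 listed root markers were measured, with levels between 3.36 and 6.94 log2 CPM and summed levels of 464 CPM in *crr* -Pi, 408 CPM in Col-0 -Pi, 425 CPM in *crr* +Pi and 416 CPM in Col-0 +Pi. Single root markers moved more than these sums. In *crr* their -Pi minus +Pi differences ran from -0.61 (XCP1) to 0.79 (COBL9), with 6 above 0 and 3 below. In Col-0 they ran from -0.59 (XCP1) to 0.61 (PLT1), with 5 above 0 and 4 below. The part of these root markers in the results was not tested. Of 6 listed green tissue markers 4 were measured, and none of these 4 was at the table's floor of -5.09 log2 CPM. They summed to 30.5 CPM in *crr* -Pi, 36.2 CPM in Col-0 -Pi, 73.6 CPM in *crr* +Pi and 66.5 CPM in Col-0 +Pi. All 4 were lower under -Pi in both genotypes, with a median difference of -1.14 in *crr* and -0.57 in Col-0, and 3 of them were past 2-fold lower in *crr* and 1 in Col-0. These markers moved with phosphate supply, in the direction opposite to most members, and their part in the results was not tested.

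**Figure D1:**
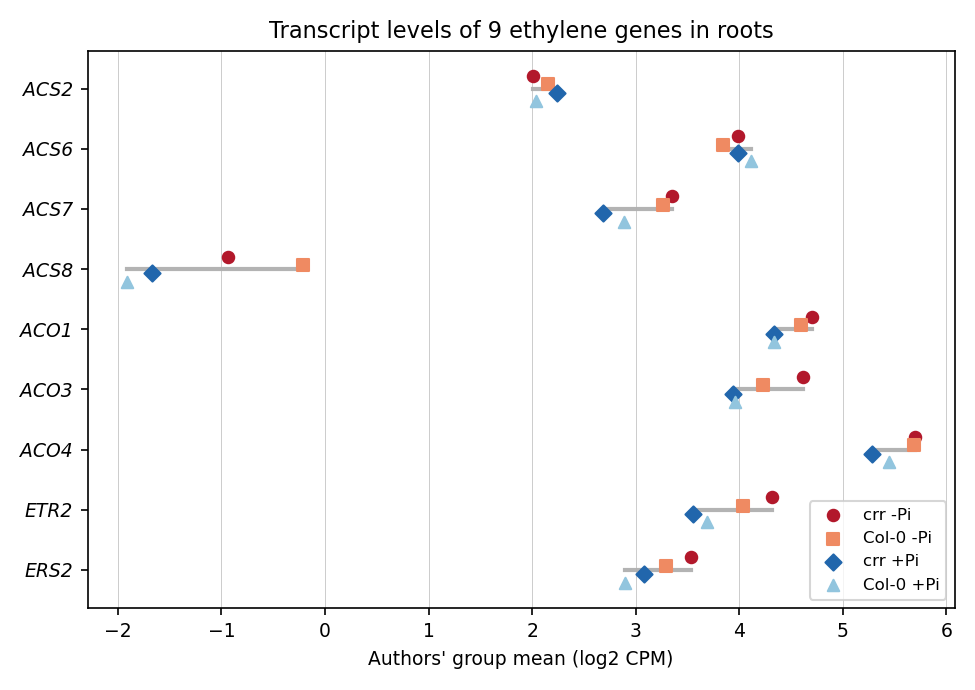
Authors' mean log2 CPM of each of the 9 genes in the 4 groups, 1 point for each group mean and a grey line over the span of the 4 means, with no error bars. ACS8 lies below 0 in every group, and the other 8 genes lie between 2.01 and 5.70.

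Among the ACC synthases, ACS7 and ACS8 were higher under -Pi in both genotypes, ACS6 was lower under -Pi in Col-0 only, ACS2 was lower in *crr* and higher in Col-0, and only ACS8 in Col-0 was past 2-fold. ACS2 (AT1G01480, chromosome 1, 175706 to 178406, plus strand, TAIR10) and ACS6 (AT4G11280, chromosome 4, 6863979 to 6866116, plus strand) encode isoforms that are stabilised when stress-activated MAP kinases phosphorylate their C terminus. ACS2 was at 2.01 log2 CPM in *crr* -Pi, 2.15 in Col-0 -Pi, 2.24 in *crr* +Pi and 2.04 in Col-0 +Pi. Its 4 means spanned 0.23, and -Pi was lower than +Pi in *crr* (-0.23) but higher in Col-0 (0.12), the sole member with opposite signs of more than 0.1 in the 2 genotypes. ACS6 was at 3.99 in *crr* -Pi, 3.85 in Col-0 -Pi, 3.99 in *crr* +Pi and 4.11 in Col-0 +Pi. The phosphate difference of ACS6 was 0.00 in *crr* and -0.27 in Col-0.

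ACS7 (AT4G26200, chromosome 4, 13275200 to 13277188, plus strand) encodes an isoform with a short C terminus that lacks those phosphorylation sites. It was at 3.35 log2 CPM in *crr* -Pi, 3.26 in Col-0 -Pi, 2.68 in *crr* +Pi and 2.89 in Col-0 +Pi. Both -Pi means were above both +Pi means. The difference between phosphate supplies was 0.67 in *crr*, a 1.59-fold higher level under -Pi, and 0.37 in Col-0, a 1.29-fold higher level.

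ACS8 (AT4G37770, chromosome 4, 17752079 to 17754157, plus strand) belongs with ACS5 and ACS9 to the isoforms whose proteins are turned over through ETO1. It was the rarest member, at -0.93 log2 CPM in *crr* -Pi, -0.21 in Col-0 -Pi, -1.67 in *crr* +Pi and -1.91 in Col-0 +Pi. On the linear scale these means are 0.524 CPM in *crr* -Pi, 0.864 CPM in Col-0 -Pi, 0.313 CPM in *crr* +Pi and 0.266 CPM in Col-0 +Pi. Both -Pi means were above both +Pi means, by 0.74 in *crr* (1.67-fold) and by 1.70 in Col-0 (3.25-fold). The authors kept a gene with 1 CPM or more in at least 1 library, and all 4 means of ACS8 were under 1 CPM. ACS8 may have passed that filter only through Col-0 -Pi, where its mean was highest. Its phosphate difference in Col-0 may depend on that filter, which was not tested. Under -Pi the *crr* minus Col-0 difference was -0.72, and the phosphate difference in *crr* less that in Col-0 was -0.96. Such differences are common at this level: among the 1634 genes with a highest group mean under 1 log2 CPM, the middle 95% of the *crr* minus Col-0 differences under +Pi ran from -1.22 to 1.21. Under -Pi it ran from -1.71 to 1.34, and the ACS8 genotype difference lies inside that range. For the phosphate difference the middle 95% of these genes ran from -2.28 to 3.40 in *crr* and from -1.92 to 3.10 in Col-0. For the difference of the phosphate differences it ran from -1.91 to 1.82. The ACS8 values lie inside each of these ranges. After 1 CPM was added to each mean, the phosphate difference of ACS8 was 0.21 in *crr* and 0.56 in Col-0, its genotype difference under -Pi was -0.29, and the difference of the phosphate differences was -0.34.

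The ACC oxidases ACO1, ACO3 and ACO4 were higher under -Pi in both genotypes, most so ACO3 in *crr*. ACO1 (AT2G19590, chromosome 2, 8475276 to 8477733, minus strand) was at 4.70 log2 CPM in *crr* -Pi, 4.59 in Col-0 -Pi, 4.34 in *crr* +Pi and 4.33 in Col-0 +Pi. ACO4 (AT1G05010, chromosome 1, 1431177 to 1433010, minus strand), also called EFE for ethylene-forming enzyme, was at 5.70 in *crr* -Pi, 5.69 in Col-0 -Pi, 5.29 in *crr* +Pi and 5.45 in Col-0 +Pi. In both genes the -Pi means were above the +Pi means, by 0.36 in *crr* and 0.26 in Col-0 for ACO1 and by 0.41 in *crr* and 0.25 in Col-0 for ACO4. The *crr* minus Col-0 difference of ACO1 was 0.10 under -Pi and 0.00 under +Pi, and that of ACO4 was 0.01 under -Pi and -0.16 under +Pi.

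ACO3 (AT1G12010, chromosome 1, 4056165 to 4057968, plus strand) was at 4.62 log2 CPM in *crr* -Pi, 4.23 in Col-0 -Pi, 3.94 in *crr* +Pi and 3.96 in Col-0 +Pi. The phosphate difference was 0.68 in *crr* (1.60-fold) and 0.27 in Col-0. The 2 genotypes had nearly the same mean under +Pi, with a difference of -0.02, and *crr* was higher by 0.39 under -Pi, the largest genotype difference under -Pi among the 8 members other than ACS8.

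The receptors ETR2 and ERS2 belong to the subfamily of receptors with a degenerate histidine kinase domain, and transcripts of both are known to be induced by ethylene itself. ETR2 (AT3G23150, chromosome 3, 8254559 to 8257888, plus strand) was at 4.32 log2 CPM in *crr* -Pi, 4.03 in Col-0 -Pi, 3.56 in *crr* +Pi and 3.69 in Col-0 +Pi. The order of the means put *crr* -Pi highest and *crr* +Pi lowest. Over the 4 centred means, the pairs ETR2 with ACO3 and ACO1 with ACO4 had the smallest Euclidean distances among the members, both 0.134, which is a description over 4 points. The phosphate difference was 0.76 in *crr* (1.69-fold) and 0.34 in Col-0 (1.27-fold), and the difference between these differences, 0.42, was the highest of the 9 members. ERS2 (AT1G04310, chromosome 1, 1154740 to 1157813, minus strand) was at 3.53 in *crr* -Pi, 3.29 in Col-0 -Pi, 3.08 in *crr* +Pi and 2.90 in Col-0 +Pi. Its phosphate difference was 0.45 in *crr* and 0.40 in Col-0, and *crr* was above Col-0 under both supplies, by 0.24 under -Pi and by 0.19 under +Pi.

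The 250 bases before the annotated start of each member were searched on both strands for the binding motif of the phosphate starvation factor PHR1 (P1BS, GNATATNC) and for the core motif of the ethylene factor EIN3 (ATGTA), because these factors are known to act in phosphate and ethylene responses. The promoters of the receptor pair are shown, with capitals marking the EIN3 core in either orientation, followed by the stretch of the ACO1 promoter in which capitals mark the only P1BS match among the members. Sequences were read from the TAIR10.1 reference and run 5′ to 3′ on the strand of the gene, at chr3:8254309-8254558 (plus) for ETR2, chr1:1157814-1158063 (minus) for ERS2 and chr2:8477918-8477965 (minus) for ACO1.
ETR2: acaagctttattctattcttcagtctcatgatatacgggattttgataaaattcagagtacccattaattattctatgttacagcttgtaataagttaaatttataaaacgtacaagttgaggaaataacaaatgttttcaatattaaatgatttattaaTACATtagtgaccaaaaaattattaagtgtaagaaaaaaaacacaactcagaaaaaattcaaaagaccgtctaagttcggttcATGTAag
ERS2: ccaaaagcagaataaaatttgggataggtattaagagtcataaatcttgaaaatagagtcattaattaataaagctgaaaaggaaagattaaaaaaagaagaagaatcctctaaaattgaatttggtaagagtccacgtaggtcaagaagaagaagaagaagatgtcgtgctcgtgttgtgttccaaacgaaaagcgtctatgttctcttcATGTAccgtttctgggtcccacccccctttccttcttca
ACO1: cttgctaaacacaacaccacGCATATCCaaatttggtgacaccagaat

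The ETR2 promoter held the EIN3 core at -90 to -86 on the minus strand and at -7 to -3 on the plus strand, counted in bases from the start of the gene, and the ERS2 promoter held it at -39 to -35. In all, 4 of the 9 members held this short motif (ACS6, ACS7, ETR2 and ERS2), against 52.1% of 19997 promoters of the same length. The P1BS match of ACO1 lay at -212 to -205, and 5.53% of promoters held that motif. The W box of WRKY factors (TTGACC) was found in 3 members (ACS7, ACS8 and ERS2) and in 12.3% of promoters. No member held the GCC box of ERF factors (GCCGCC, 1.97% of promoters) or the G-box (CACGTG, 7.18%). These are matches of letters in 1 window, and no binding was measured.

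**Figure D2:**
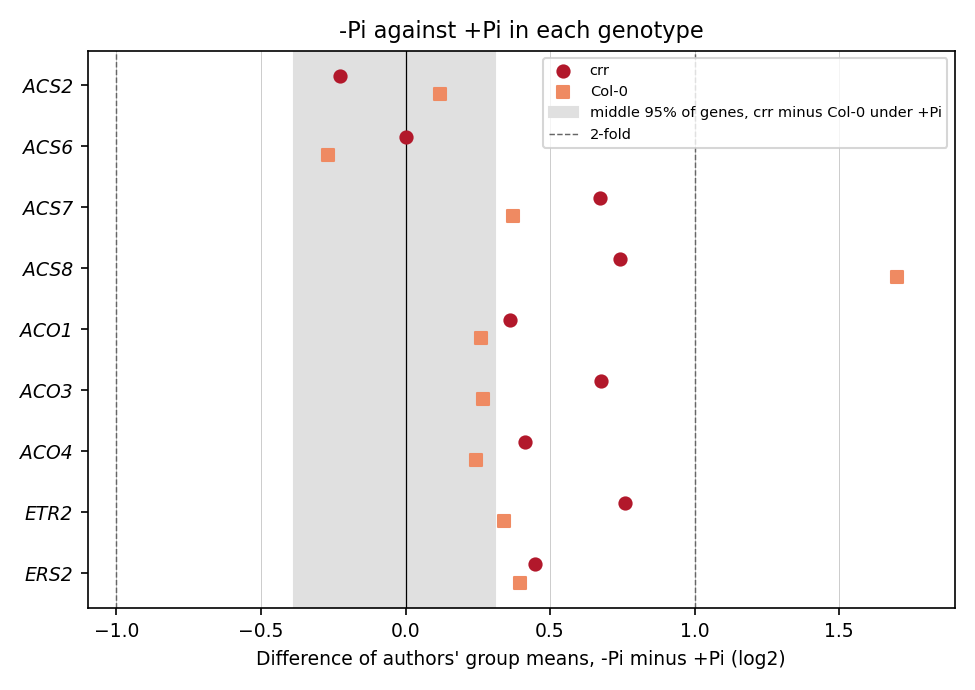
Difference between -Pi and +Pi group means (log2 units) of each of the 9 genes in *crr* and in Col-0, 1 point for each genotype with no error bars. The grey band, -0.39 to 0.31, holds the middle 95% of *crr* minus Col-0 differences under +Pi, dashed lines mark 2-fold, and 7 of the 9 genes have their higher value in *crr*, ACS2 and ACS8 theirs in Col-0.

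Between phosphate supplies, most members were slightly higher under -Pi in both genotypes. In *crr*, 8 of 9 members were above 0, among 51.4% of all genes, and none was past 2-fold in either direction, where 5.06% of genes were higher and 3.62% lower by that much. ACS6 stood at 0.00 in this count, and 7 of 9 members were above 0 once differences were centred on the median of all genes. In Col-0, 8 of 9 members were above 0, among 54.3% of all genes, and 1 member, ACS8, was past 2-fold higher and 0 past 2-fold lower, where 4.19% of genes were higher and 2.79% lower by that much. The median difference of the members was 0.45 in *crr* and 0.27 in Col-0, beside medians of 0.01 and 0.02 over all genes in those genotypes. The comparison of genotypes in their phosphate differences uses the same 4 group means and is no separate evidence.

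As a yardstick chosen after the values were seen, the middle 95% of *crr* minus Col-0 differences under +Pi was taken over the 18383 genes with a highest group mean of at least 1 log2 CPM, and it ran from -0.39 to 0.31. It is a range over genes that also holds genuine genotype differences, and it is no replicate error. ACS8 is under that level, which leaves 8 members. In *crr*, 6 of these 8 had a phosphate difference above the range (ACS7, ACO1, ACO3, ACO4, ETR2 and ERS2), where 16.9% of the 18383 genes lay above it and 11.8% below it. In Col-0, 3 of 8 lay above it (ACS7, ETR2 and ERS2), where 14.6% of genes lay above and 10.3% below. No member lay below the range in either genotype.

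**Figure D3:**
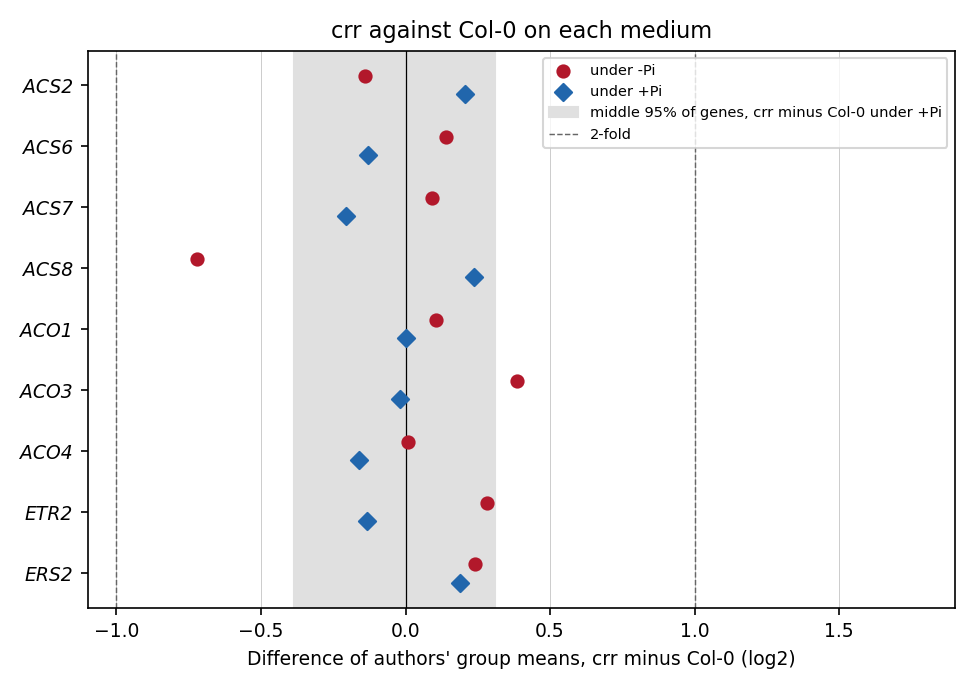
Difference between *crr* and Col-0 group means (log2 units) of each of the 9 genes under -Pi and under +Pi, 1 point for each supply with no error bars, with a grey band over the middle 95% of 18383 genes under +Pi and dashed lines at 2-fold. Among the 8 genes above the level limit, ACO3 under -Pi, at 0.39, is the only point outside the range of -0.39 to 0.31.

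Between genotypes the differences were small. Under -Pi, 7 of 9 members were higher in *crr*, among 48.4% of all genes, with a median of 0.10 beside -0.01 over all genes. None was past 2-fold, where 0.629% of genes were higher and 1.06% lower. ACO3 alone among the 8 members at the level limit lay outside the yardstick range, above it, where 5.31% of genes lay above and 4.85% below. All 9 root markers were also above 0 in this comparison, with a median of 0.09, while 3 of the 4 green tissue markers were below 0, with a median of -0.20. The root markers ran from 0.03 (SHR) to 0.43 (CASP1), so that CASP1 differed by more than ACO3. Under +Pi, 4 of 9 members were higher in *crr*, among 49.8% of all genes, with a median of -0.02 beside -0.00 over all genes, and all 4 green tissue markers were higher, with a median of 0.34. None of the members was past 2-fold, where 0.395% of genes were higher and 0.56% lower.

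The phosphate difference in *crr* less that in Col-0 was above 0 for 7 of 9 members, among 48.2% of all genes. ACS6 is among these 7 because its phosphate difference was 0.00 in *crr* and -0.27 in Col-0. This signed difference ran up to 0.42 for ETR2 and 0.41 for ACO3, with a median of 0.17 over the members beside -0.01 over all genes, and the 2 members with a lower value in *crr* were ACS2 (-0.34) and ACS8 (-0.96). None was past 2-fold, where 1.47% of genes were higher and 1.51% lower. All 4 measured green tissue markers were below 0 in this comparison, with a median of -0.56. The 9 root markers ran from -0.20 (WER) to 0.55 (CASP1), with 5 above 0 and 4 below, and CASP1 was above ETR2.

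**Figure D4:**
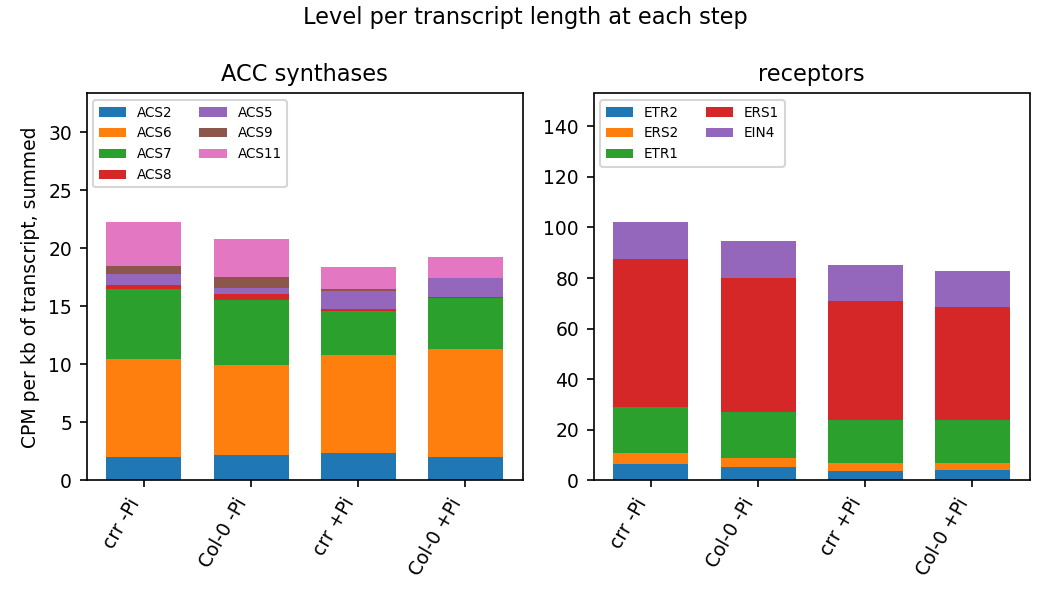
Stacked bars of CPM per kb of longest transcript, back-transformed from the authors' means, for ACC synthases and receptors in the 4 groups, with a y axis of its own in each panel and no error bars. The synthase bars reach 18.4 to 22.2 and the receptor bars 82.8 to 102 with ERS1 as the largest part.

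Levels of different genes were compared as CPM per kilobase of the longest annotated transcript, from back-transformed means. In every group the order of the members was led by ACO4 and ACO3 and ended with ERS2, ACS2 and ACS8, and none of these positions changed when the mean transcript length was used. In the middle, ACS6 was above ACO1 in Col-0 +Pi only, and ETR2 was above ACS7 in *crr* -Pi only, so that neither neighbouring pair kept its order.

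The 7 ACC synthases with values, leaving out ACS10 and ACS12, whose products are annotated as probable aminotransferases, summed to 22.2 CPM per kilobase in *crr* -Pi, 20.8 in Col-0 -Pi, 18.4 in *crr* +Pi and 19.2 in Col-0 +Pi. ACS6 held 38.1% of that sum in *crr* -Pi and 37.0% in Col-0 -Pi, against 46.0% in *crr* +Pi and 48.1% in Col-0 +Pi. ACS7 held 27.2% in *crr* -Pi and 27.3% in Col-0 -Pi, against 20.6% in *crr* +Pi and 22.8% in Col-0 +Pi. ACS8 held 1.32% in *crr* -Pi and 2.33% in Col-0 -Pi, against 0.953% in *crr* +Pi and 0.774% in Col-0 +Pi. ACS11, which is not a member, held 17.0% in *crr* -Pi and 15.9% in Col-0 -Pi, against 10.5% in *crr* +Pi and 9.21% in Col-0 +Pi. Among the 5 receptors, ERS1 took more than any other receptor in each group, between 53.9% and 57.3% of the summed level per kilobase. ETR2 held 6.20% in *crr* -Pi, 5.49% in Col-0 -Pi, 4.38% in *crr* +Pi and 4.95% in Col-0 +Pi, and ERS2 held between 3.49% and 4.41%.

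**Figure D5:**
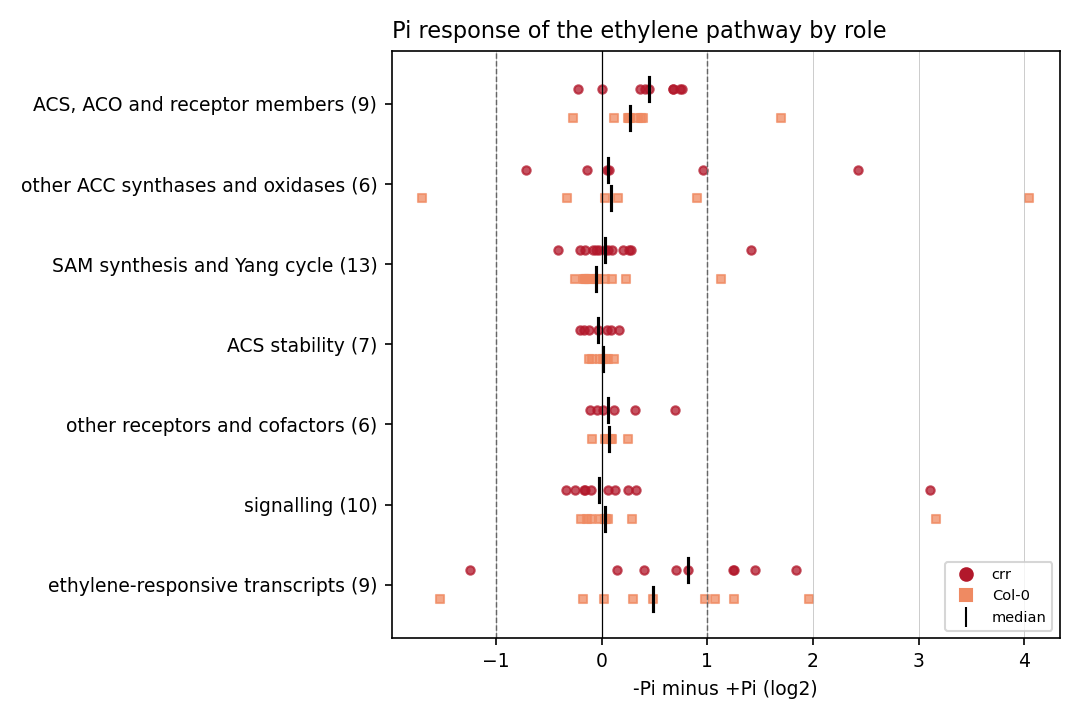
Difference between -Pi and +Pi group means (log2 units) in *crr* and in Col-0 for the members and the listed genes of the ethylene pathway, grouped by role, 1 point for each gene and genotype with a black bar at the median of each list. Most genes lie within 2-fold (dashed lines), and the points above 1 in both genotypes are ACS9, ARD3, EIL2, CHIB, PR4 and ARL.

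The other genes of the pathway were taken from lists by role. Among the other ACC synthases and oxidases, 6 of 8 had values (ACS1 and ACS4 were not analysed here), and past 2-fold under -Pi there was 1 higher and 0 lower in *crr*, and 1 higher and 1 lower in Col-0, beside 5.06% of all genes higher and 3.62% lower in *crr* and 4.19% higher and 2.79% lower in Col-0. ACS9 (AT3G49700) was the one higher in both, at -0.04 log2 CPM in *crr* -Pi, 0.44 in Col-0 -Pi, -2.46 in *crr* +Pi and -3.61 in Col-0 +Pi. Its phosphate difference was 2.42 in *crr* and 4.05 in Col-0, all at levels under 1 log2 CPM. It was also the one listed gene past 2-fold between genotypes, at 1.15 under +Pi, and its phosphate difference in *crr* less that in Col-0 was -1.62. ACS5 (AT5G65800) went the other way, at 0.84 in *crr* -Pi, -0.14 in Col-0 -Pi, 1.55 in *crr* +Pi and 1.56 in Col-0 +Pi, a phosphate difference of -0.71 in *crr* and -1.70 in Col-0. ACS11 was at 2.78 log2 CPM in *crr* -Pi, 2.59 in Col-0 -Pi, 1.82 in *crr* +Pi and 1.69 in Col-0 +Pi. It was higher under -Pi by 0.96 in *crr* and by 0.90 in Col-0. ACS10 differed by 0.05 in *crr* and 0.03 in Col-0, and ACS12 by 0.07 in *crr* and 0.16 in Col-0, and ACS12 overlaps AT5G51680 by 1495 bases on the opposite strand. ACO5 (AT1G77330) had a phosphate difference of -0.14 in *crr* and -0.33 in Col-0, with 7.37 log2 CPM in *crr* -Pi, 7.12 in Col-0 -Pi, 7.51 in *crr* +Pi and 7.45 in Col-0 +Pi.

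Upstream of ACC synthase, 12 of the 13 listed genes of S-adenosylmethionine synthesis and methionine salvage stayed within 2-fold in both genotypes. ARD3, an acireductone dioxygenase of the salvage cycle, was the other one, higher under -Pi by 1.42 in *crr* and by 1.13 in Col-0, and is named after its values were seen because its level is under 1 log2 CPM. None of the 7 listed genes for ACC synthase stability, among them ETO1 and the kinases MPK3 and MPK6, was past 2-fold in either genotype, and their differences ran from -0.20 to 0.16 in *crr* and from -0.12 to 0.12 in Col-0. Over all genes the shares past 2-fold under -Pi were 5.06% higher and 3.62% lower in *crr*, and 4.19% higher and 2.79% lower in Col-0.

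Of the other receptors, ERS1 was higher under -Pi by 0.31 in *crr* and 0.25 in Col-0, ETR1 by 0.12 in *crr* and 0.09 in Col-0, and EIN4 by 0.01 in *crr* and 0.03 in Col-0. These 3 were smaller than the differences of ETR2 and ERS2 in both genotypes. None of the 6 other receptors and cofactors was past 2-fold. Of the 10 signalling genes, 1 was past 2-fold in each genotype, EIL2 (AT5G21120), a homologue of EIN3, at 3.41 CPM in *crr* -Pi, 3.47 in Col-0 -Pi, 0.395 in *crr* +Pi and 0.388 in Col-0 +Pi. Its phosphate difference on the log2 scale was 3.11 in *crr* and 3.16 in Col-0. Both +Pi means of EIL2 were under 1 CPM. EIL2 may have passed the authors' filter under -Pi alone, and its phosphate difference may depend on that filter, which was not tested. The other 9, including the kinase CTR1, EIN2 and EIN3, differed by less than 2-fold. Of all genes, 5.06% were past 2-fold higher and 3.62% lower under -Pi in *crr*, and 4.19% higher and 2.79% lower in Col-0.

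Of 11 listed transcripts known to respond to ethylene, 9 had values. In *crr*, 4 were past 2-fold higher and 1 lower under -Pi, and in Col-0, 3 were past 2-fold higher and 1 lower, with medians of 0.82 in *crr* and 0.48 in Col-0. Over all genes the shares past 2-fold were 5.06% higher and 3.62% lower in *crr* and 4.19% higher and 2.79% lower in Col-0, and the medians were 0.01 in *crr* and 0.02 in Col-0. CHIB, a basic chitinase, was higher by 1.83 in *crr* and 1.96 in Col-0, and PR4, a chitin-binding defence protein, by 1.24 in *crr* and 1.26 in Col-0. ARL and ARGOS are organ size genes whose products dampen ethylene signalling. ARL was higher by 1.25 in *crr* and 1.07 in Col-0, and ARGOS by 1.45 in *crr* and 0.98 in Col-0. RAV1, an AP2 and B3 domain factor, was the one past 2-fold lower, with -1.24 in *crr* and -1.53 in Col-0. CHIB and PR4 are also known to respond to jasmonate and to pathogens, and the list does not separate these signals from ethylene.

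Likeness to other genes is given for ACS8 only, by a rule that asks for 4 means spanning at least 1 log2 unit, which no other described member met. The search covered the 18383 genes with a highest group mean of at least 1 log2 CPM. Those with the smallest Euclidean distance over the 4 centred means were AT3G03020 (0.146), PER53 (0.214), a peroxidase gene, and AT1G78830 (0.222). ACS8 itself was under that level in every group, and other genes under it were not searched.

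No member overlapped another annotated gene, and none of the 50-base windows of their transcripts occurred elsewhere in the 5 chromosomes, so that reads of these members were not shared with near-identical copies at that length.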

How the data were processed

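Root RNA of 12 libraries in 4 groups of 3 was sequenced, with groups as labelled. Per the methods and the submitters' processing notes, the authors used cutadapt 1.8 for trimming, STAR 2.5.3a for alignment to TAIR10 and HTSeq 0.9.1 for gene counts. RSEM 1.2.31 is also listed. Whether counting used strand is not given in the sources used here. A gene needed 1 CPM or more in at least 1 library to be kept. The authors scaled libraries with edgeR 3.24.3 under R 3.5.3 and deposited the mean log2 CPM of each group, the only values used here. Such means hide the spread between libraries, and log2 differences of low genes depend on the authors' prior count. Other deposited tables hold the authors' fold changes, p-values, adjusted p-values, F statistics and the same group means, and were not used. Read numbers per library are given by the study but were not used here, so that no interval that needs them is given.

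Differences of group means were computed for 20017 genes with Python 3.11 and NumPy 2.4.6 and checked on simulated data, and figures were drawn with Matplotlib 3.10.9. A gene was counted as past the limit at 2-fold. The planned limma fit needed single libraries and was replaced by this description. Alternatives were a limit of 1.5-fold, a highest mean of at least 1 log2 CPM, a pseudocount of 1 CPM and centring on the median of all genes. Named genes were the members, CRR, the other ACC synthases, ACO5, the receptors ETR1, ERS1 and EIN4, and genes of the pathway lists past 2-fold in a pairwise comparison with a highest mean of at least 1 log2 CPM. Likeness used the 3 closest genes of each member spanning at least 1 log2 unit. Of the 10 genes chosen, 1 is not reported here, and counts of members leave it out. Members, lists and limits were chosen with earlier results of these data known. Promoters and gene models came from RefSeq TAIR10.1, whose positions equalled those of the table for 99.4% of 19992 genes. For RNA extraction a column kit is named in the labels but Trizol in the methods, which could not be settled.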

Additional observations from a re-analysis of the deposited data

How the results depend on the processing

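The count of members past 2-fold between phosphate supplies in Col-0 was 1, and it was 0 both with genes kept only at a highest mean of at least 1 log2 CPM and with a pseudocount of 1 CPM, since ACS8 is under that level. With a limit of 1.5-fold, the count was 4 in place of 0 between phosphate supplies in *crr* (ACS7, ACS8, ACO3 and ETR2), 1 in place of 0 between genotypes under -Pi (ACS8), and 1 in place of 0 for the difference of the phosphate differences (ACS8). The share of all genes past 1.5-fold is not given here. In *crr*, 84.7% of all genes had a smaller absolute phosphate difference than ACS7, the lowest of these 4. For ACS8, 96.4% of genes had a smaller absolute genotype difference under -Pi. For its difference of the phosphate differences that share was 96.7%. The remaining counts kept their value under the alternatives tried. Of 45 differences of members, 1 crossed the 2-fold limit with the pseudocount and 0 with centring, and centring turned the sign of 1, 0.00059 in size. No paired analysis was possible because the columns used are group means that carry no replicate number. For the same reason, leaving out single replicates and the replicate block were not run. Without values of single libraries, differences of a size like those of most members cannot be set against replicate error, and the depth behind ACS8, ACS9 and ARD3, all under 1 log2 CPM, was not used here. ACS8, ACS9, ARD3 and EIL2 had their highest mean in Col-0 -Pi. They may have passed the authors' filter of 1 CPM in at least 1 library under -Pi alone, which was not tested.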
